A study of Mus musculus with 14 samples.

Results

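Cytosolic ribosomal protein genes encode the protein parts of the ribosome that translates nuclear messages, Rpl genes for the large subunit and Rps genes for the small one. Members were the rows of the count table whose mouse symbol had the form of a ribosomal protein gene, or was Rplp0, Rplp1, Rplp2 or Rpsa. S6 kinase genes, symbols marked as pseudogenes and X-linked genes were left out, and a mean of at least 10 CPM (counts scaled to a common library total) over the 14 libraries was required. Of 55487 gene rows, 83 had such a symbol, 4 of them lay on the X chromosome and 8 were under the level required. This left 71 genes, 42 named Rpl and 29 named Rps (Rpsa included), and all 71 were among the 14754 genes with enough counts to test. Rpl13a at 17.8 CPM and Rps27l at 37.9 CPM were the members closest to the level required. Below it lay Rps4l, annotated as a transcribed processed pseudogene, at 8.08 CPM, and Rps10 at 2.62 CPM. The transcript of Rps10 shares 53.6% of its length with exons of another annotated gene on its strand, so its count is uncertain.

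The study asked how monocytes from mouse bone marrow respond to the cytokine IL-4 and whether the response needs the aryl hydrocarbon receptor (AhR), which switches on target genes when a small ligand binds it. The groups were AhR-deficient cells with IL-4 and AhR-deficient cells in medium (n = 3 each, numbers 4, 5 and 6), and wild-type cells with IL-4 and wild-type cells in medium (n = 4 each, numbers 1, 2, 3 and 7). All cells were isolated from legs with a monocyte kit and cultured for 3 h, with 20 ng/mL of mouse IL-4 or with none. The labels give neither the age or sex of the animals, nor the allele, nor whether a number is 1 animal or a pool, so p-values measure the spread between these libraries.

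Total counts ran from 33432502 to 42885079 per library. All 8 monocyte markers had counts in every group. Their summed level was 5730 to 6240 CPM in AhR-deficient cells with IL-4, against 7250 to 7808 CPM in medium, and 6599 to 7244 CPM in wild-type cells with IL-4, against 7262 to 8152 CPM in medium. The 6 dendritic cell markers summed to 127 to 136 CPM in AhR-deficient cells with IL-4, against 66.6 to 69.97 CPM in medium, and to 106 to 133 CPM in wild-type cells with IL-4, against 53.6 to 94.7 CPM in medium. The 5 progenitor markers summed to 1474 to 1573 CPM in AhR-deficient cells with IL-4, against 1315 to 1434 CPM in medium, and to 1671 to 1859 CPM in wild-type cells with IL-4, against 1360 to 1598 CPM in medium. For these 3 lists the groups did not overlap between IL-4 and medium in either genotype, and their part in the results below was not tested. B cell markers summed to at most 4.22 CPM and T and NK cell markers to at most 4.58 CPM. Granulocyte markers were present and uneven: the 12 neutrophil markers summed to 379 to 669 CPM in AhR-deficient cells with IL-4, 401 to 767 CPM without it, 547 to 1098 CPM in wild-type cells with IL-4 and 471 to 1250 CPM without it. Within wild type, numbers 1 and 2 were the highest in both conditions, with 1098 and 1016 CPM with IL-4 and 1250 and 1133 CPM in medium. The 10 eosinophil and basophil markers summed to 55.9 to 187 CPM in AhR-deficient cells with IL-4 and 56.5 to 198 CPM without it. In wild-type cells they summed to 110 to 387 CPM with IL-4 and 122 to 389 CPM without it. Ahr counts did not mark the deficient libraries as lower: with IL-4 they stood at 41.9 ± 4.43 CPM in AhR-deficient and 25.5 ± 1.40 CPM in wild-type cells, and in medium at 20.9 ± 5.23 CPM in AhR-deficient and 13.02 ± 1.60 CPM in wild-type cells (SD), though counts per gene cannot show a deleted exon. Xist was at 987 CPM or more in every AhR-deficient library and at 2.12 CPM or less in every wild-type one, so the genotypes also differ in sex-linked transcripts, and genotype and sex cannot be told apart.

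Ribosomal protein mRNAs of mammals begin with a cytosine followed by a run of pyrimidines, the terminal oligopyrimidine (TOP) tract. Through this tract their translation is tied to the growth-regulating kinase complex mTORC1, with the RNA-binding protein LARP1 as an intermediary. The proteins are made in the cytoplasm, imported into the nucleolus, joined to ribosomal RNA by a large set of biogenesis factors and exported as subunits. What was measured here is the amount of each mRNA relative to the other RNA of its library, not its translation.

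The bases around the start of transcription are shown for members on which the results below turn. Each sequence runs 5′ to 3′ on the strand of the gene, 15 bases before the RefSeq start and 15 after it, from RefSeq on GRCm38.p6. Capitals mark a C followed by at least 5 more pyrimidines, which is how a tract was searched for. A marked stretch can lie wholly before the start, outside the mRNA that begins there. Rps9 lies at chr7:3704026-3704055 on the plus strand, Rps27 at chr3:90213634-90213663 on the minus strand and Rps15a at chr7:118116133-118116162 on the minus strand, and these are 3 of the 5 called members with the largest fall in wild-type cells. Rplp2, at chr7:141447636-141447665 on the plus strand, passed the test in neither genotype. Rps27l, the gene that did not share the common direction, has a pair of RefSeq starts on the plus strand, at chr9:66946071-66946100 and at chr9:66946398-66946427.
Rps9: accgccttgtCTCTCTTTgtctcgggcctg
Rps27: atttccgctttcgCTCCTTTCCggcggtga
Rps15a: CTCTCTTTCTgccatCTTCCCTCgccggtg
Rplp2: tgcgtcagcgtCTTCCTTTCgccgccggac
Rps27l, upstream start: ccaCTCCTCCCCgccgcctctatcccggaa
Rps27l, downstream start: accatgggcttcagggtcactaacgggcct
Such a tract stood between 25 bases before and 50 bases after the start in 51 of 62 RefSeq windows of 51 members (82.3%), against 45.3% of 12901 windows of 10152 tested genes. On the opposite strand the order turned round, with 27.4% of the windows of members against 51.7% of those of tested genes. In the whole window of 300 bases, read on both strands, CCGGAAG, which holds the core bound by ETS factors, was in 37.1% of the windows of members and 17.4% of all. AANATGGC, which holds the core of the YY1 motif, was in 20.97% and 8.47%, and the TATA box letters TATAAA were in 6.45% and 7.27%. These are matches of letters, not sites of binding, and members with and without a call were not compared by them.

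The levels of the members differed widely from each other. Per kilobase of the APPRIS principal transcript, the highest levels over all libraries were those of the small-subunit genes Rps29 (1324 CPM per kb), Rps27 (1298) and Rps9 (1233) and of the stalk genes Rplp0 (1213) and Rplp1 (1104). The median member stood at 510.1 CPM per kb. Rpl13a was the lowest at 17.0 CPM per kb, and the highest level was 78.0 times that. Of the transcript of Rpl13a, 59.3% is shared with exons of other annotated genes on its strand, so its count is uncertain, while 68 of the 71 members share none of theirs. Rps20 and Rps15a, at 102 and 90.0 CPM per kb, have long annotated principal transcripts of 3706 and 5179 bases. The 299 rows named as ribosomal protein pseudogenes held between 0.00761% and 0.0103% of the counts of a library.

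All members together took a smaller share of the counts with IL-4 than in medium in each of the 7 pairs of libraries of the same number. In AhR-deficient cells the share was 3.24%, 3.38% and 3.26% with IL-4 (numbers 4, 5 and 6; 3.29 ± 0.0737%, SD, n = 3), against 3.59%, 3.69% and 3.54% in medium (3.61 ± 0.0793%). These groups did not overlap. In wild-type cells it was 3.52%, 3.17%, 3.34% and 3.48% with IL-4 (numbers 1, 2, 3 and 7; 3.38 ± 0.159%, n = 4), against 4.16%, 3.55%, 3.51% and 3.54% in medium (3.69 ± 0.314%). These groups overlapped by 1 library, since number 1 with IL-4 stood above number 3 in medium, and the mean in medium is raised by number 1. In bulk RNA, less RNA per cell and fewer cells of a type cannot be told apart. A share of counts is relative to the other RNA of the library, as are CPM and the fold changes below. None of them gives an absolute amount per cell. The 42 large-subunit genes held 1.32 times the counts of the 29 small-subunit genes in AhR-deficient cells with IL-4 (range 1.315 to 1.323) and 1.31 times in medium (1.303 to 1.307). The ratio was 1.32 (1.316 to 1.331) in wild-type cells with IL-4 and 1.31 (1.300 to 1.319) in medium.

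**Figure D1:**
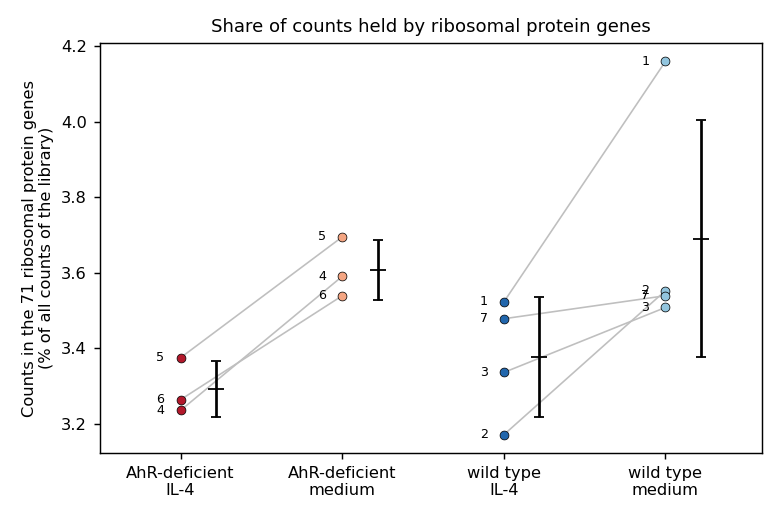
Share of the counts of each library held by the 71 ribosomal protein genes, in percent, by group; each point is a library with its number, grey lines join libraries of the same number, and the bar is the mean ± SD. Every line runs lower at the IL-4 end, and wild type number 1 in medium, at 4.16%, stands above all other libraries.

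With IL-4, ribosomal protein mRNAs of AhR-deficient cells were lower, nearly all of them and within a narrow range of fold changes. edgeR's quasi-likelihood test, with p-values adjusted by Benjamini-Hochberg over all genes tested and calls at an adjusted p under 0.05, called 44 of the 71 members lower and 0 higher, where 14.2% of all tested genes were called lower, 15.4% higher and 29.5% in either direction. Without adjustment, 60 members had a p under 0.05. The median log2 fold change of the members was -0.18, at which a level fell by 11.6%, and the range was -0.32 to 0.04, while the median of all tested genes was -0.01. In 69 of 71 members the fold change was negative. In 68 the libraries with IL-4 all lay below those in medium, as they did in 21.4% of all tested genes. Of the large-subunit genes 25 of 42 were called and of the small-subunit genes 19 of 29, with a median of -0.18 in both. The summed counts of large- over small-subunit genes gave a ratio of 1.315 to 1.323 with IL-4, against 1.303 to 1.307 in medium, without overlap. In wild-type cells the ratio was 1.316 to 1.331 with IL-4, against 1.300 to 1.319 in medium, with overlap, and it was higher with IL-4 in each of the 7 pairs of libraries of the same number.

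The count of calls moved with the fit more than the median did. Scaling to total counts without the TMM step left 3 members called, where 11.7% of all tested genes were called lower. The median of the members was then -0.13 and that of all tested genes 0.04. Relative to all tested genes the members stood at -0.17, as they did with TMM. Testing every gene with a count left 6, where 6.27% of all genes were called lower. Leaving out any 1 of the 6 AhR-deficient libraries left 13 to 18, where 11.1% to 12.7% were. With the number of the library as a block, 62 were called, all 44 among them, and 17.8% of all tested genes were called lower.

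In wild-type cells the fall was of like size. edgeR's test called 39 of the 71 members lower and 0 higher, where 16.5% of all tested genes were called lower, 19.4% higher and 35.9% in either direction, and 47 members had an unadjusted p under 0.05. The median log2 fold change was -0.15, at which a level fell by 9.70%, with a range of -0.28 to 0.07 and a median of 0.01 over all tested genes. It was negative in 70 of 71 members, and in 38 the groups did not overlap, as in 14.9% of all tested genes. Of the large-subunit genes 21 of 42 were called, and of the small-subunit genes 18 of 29. Numbers 1 and 2 had the most neutrophil marker RNA, and without them 62 members had a negative value, the median was -0.08 and 6 were called. The 6 were Rps9, Rpl7, Rps27a, Rpl9, Rps24 and Rps27. In that fit 12.3% of all tested genes were called lower, a larger share than that of the members. It kept wild-type numbers 3 and 7, and number 7 was uneven in granulocyte markers. Its neutrophil markers summed to 909 CPM with IL-4 and 471 CPM in medium, against 547 and 585 CPM in number 3. Its eosinophil and basophil markers summed to 298 and 143 CPM, against 110 and 122 CPM in number 3. The part of this imbalance in the fit was not tested. With the granulocyte marker level as a covariate 41 were called and the median was again -0.15. Leaving out wild type number 1 in medium alone left 25 called, and leaving out number 2 with IL-4 left 19. Scaling to total counts left 17 and fitting the wild-type libraries alone left 20. In these fits, from the covariate on, 14.7% to 17.2% of all tested genes were called lower.

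**Figure D2:**
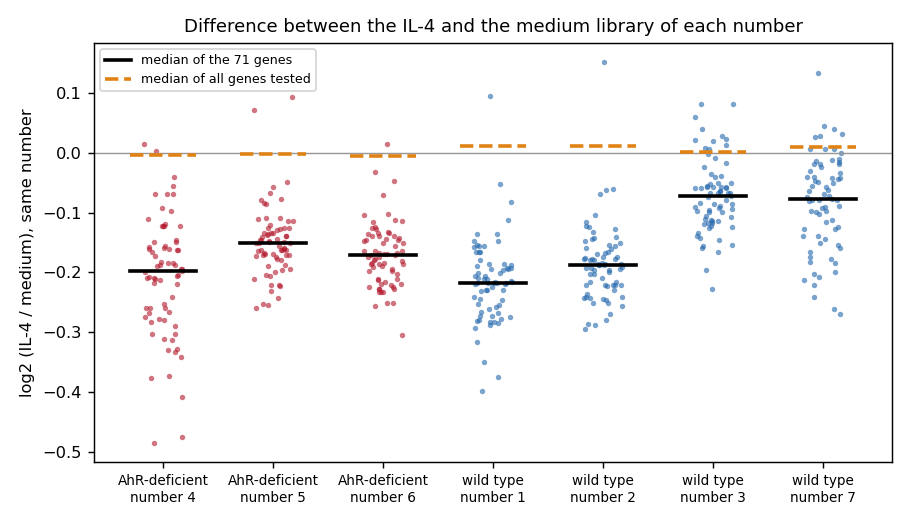
Log2 ratio of the IL-4 to the medium library of the same number, one point per ribosomal protein gene, for the 3 AhR-deficient and the 4 wild-type numbers; the black bar is the median of the 71 genes and the dashed bar that of all genes tested. All 7 black bars lie below 0, from -0.22 to -0.07, and wild type numbers 3 and 7 lie closest to it.

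Pair by pair, members were lower in the IL-4 library in 69, 69 and 70 of 71 cases in AhR-deficient numbers 4, 5 and 6. In wild-type numbers 1, 2, 3 and 7 the counts were 70, 70, 60 and 62. The median log2 ratios were -0.20, -0.15 and -0.17 in AhR-deficient numbers 4, 5 and 6 and -0.22, -0.19, -0.07 and -0.08 in wild-type numbers 1, 2, 3 and 7. The median over all tested genes lay between -0.01 and 0.01 in every pair. All 3 AhR-deficient pairs were lower with IL-4 in 69 of 71 members (33% of all tested genes), and all 4 wild-type pairs in 54 of 71 (24.4%). The same 54 were lower in each of the 7 pairs, against 19.5% of all tested genes.

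Rps9 (ENSMUSG00000006333.14, GRCm38 chromosome 7, 3703993 to 3706897, plus strand), a small-subunit protein near the channel by which mRNA enters, fell most in both genotypes. In AhR-deficient cells it had 1012, 1054 and 1015 CPM with IL-4, against 1343, 1262 and 1254 CPM in medium. In wild-type cells it had 1039, 899, 1061 and 988 CPM with IL-4, against 1346, 1097, 1215 and 1192 CPM in medium. In both genotypes every library with IL-4 lay below every library in medium. The log2 fold change was -0.32 ± 0.07 in AhR-deficient cells (SE, edgeR adjusted p = 0.00442) and -0.28 ± 0.06 in wild-type cells (edgeR adjusted p = 0.00345).

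Other small-subunit genes fell less. Rps27 (ENSMUSG00000090733.6, chromosome 3, 90212522 to 90213651, minus strand), which encodes a zinc-finger protein of the small subunit, had 435, 427 and 430.4 CPM with IL-4 in AhR-deficient cells, against 464, 492 and 506 CPM in medium. The wild-type values were 415, 384, 409 and 416 CPM with IL-4, against 486, 457, 450.3 and 498 CPM in medium. The groups were apart in both genotypes, with log2 fold changes of -0.18 ± 0.05 in AhR-deficient cells (edgeR adjusted p = 0.0215) and -0.22 ± 0.05 in wild-type cells (edgeR adjusted p = 0.00184). The sequence of Rps15a shown above holds a tract before the start and another from the start on. Rps15a fell by 0.18 ± 0.05 on the log2 scale in AhR-deficient cells (edgeR adjusted p = 0.0221) and by 0.21 ± 0.05 in wild-type cells (edgeR adjusted p = 0.00277). Rps19, the gene most often mutated in human Diamond-Blackfan anaemia, had 361, 374 and 371 CPM with IL-4 in AhR-deficient cells, against 446, 429 and 434 CPM in medium. In wild-type cells it had 375, 354, 375 and 398 CPM with IL-4, against 437, 391, 404 and 410.0 CPM in medium, where the groups overlapped through number 7 with IL-4 and number 2 in medium. It fell in both genotypes, by 0.24 ± 0.05 in AhR-deficient cells (edgeR adjusted p = 0.00308) and by 0.13 ± 0.05 in wild-type cells (edgeR adjusted p = 0.0448), a wild-type call lost in 16 of 28 alternative fits.

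Further small-subunit genes were Rps20, Rps21 and Rps29, the last with the highest level per kilobase of all members. Rps20 had 334, 358 and 339 CPM with IL-4 in AhR-deficient cells, against 421, 419.5 and 394 CPM in medium, without overlap. Its log2 fold change was -0.26 ± 0.07 there and -0.18 ± 0.06 in wild-type cells (edgeR adjusted p = 0.00913 and 0.0257). Rps21 fell in AhR-deficient cells, by 0.28 ± 0.09 (edgeR adjusted p = 0.0259). In wild-type cells its value of -0.15 ± 0.08 did not pass (edgeR adjusted p = 0.153), except with the number as a block (adjusted p = 0.0213). Rps29 fell by 0.23 ± 0.07 in AhR-deficient cells and by 0.16 ± 0.06 in wild-type cells (edgeR adjusted p = 0.0172 and 0.0450), and its wild-type call was lost in 15 of the 28 alternatives.

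**Figure D3:**
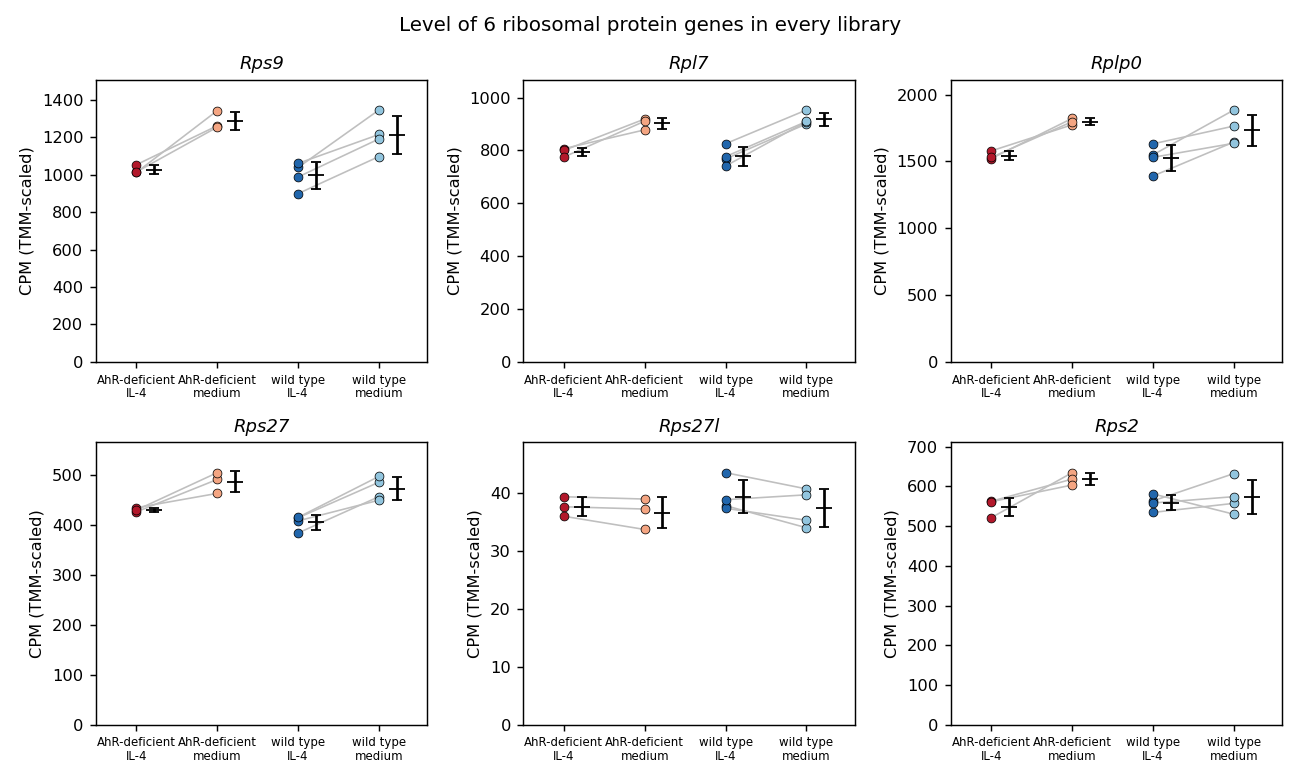
Level of 6 ribosomal protein genes in CPM scaled by TMM, by group, with axes from 0; points are libraries, grey lines join libraries of the same number and bars are the mean ± SD. Rps9, Rpl7, Rplp0 and Rps27 lie lower with IL-4 in both genotypes, Rps2 overlaps in wild type, and Rps27l overlaps in both.

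Of the large-subunit genes, Rpl7 and Rpl9 fell most in wild-type cells among those called. Rpl7 (ENSMUSG00000043716.13, chromosome 1, 16101295 to 16104662, minus strand) had 807, 800.2 and 775 CPM with IL-4 in AhR-deficient cells, against 878, 919 and 911 CPM in medium. Wild-type cells had 768, 741, 777 and 826 CPM with IL-4, against 900.4, 909, 909.7 and 953 CPM in medium. The groups were apart in both genotypes, with log2 ratios within pairs of -0.12, -0.20 and -0.23 in AhR-deficient numbers 4, 5 and 6 and of -0.23, -0.29, -0.23 and -0.21 in wild-type numbers 1, 2, 3 and 7. Its fold change was -0.19 ± 0.05 in AhR-deficient cells (edgeR adjusted p = 0.0108) and -0.24 ± 0.04 in wild-type cells (edgeR adjusted p = 5.30e-04). Rpl9, at the base of the stalk, fell by 0.21 ± 0.07 in AhR-deficient cells and by 0.24 ± 0.06 in wild-type cells (edgeR adjusted p = 0.0344 and 0.00625).

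The stalk is the part of the large subunit that recruits translation factors, and Rplp0 is the anchor on which the acidic proteins Rplp1 and Rplp2 are mounted. Rplp0 had 1521, 1578 and 1529.5 CPM with IL-4 in AhR-deficient cells, against 1822, 1774 and 1797 CPM in medium. In wild-type cells it had 1549, 1391, 1530.4 and 1631 CPM with IL-4, against 1885, 1645, 1636 and 1764 CPM in medium. Both groups were apart, and the gene fell by 0.22 ± 0.07 in AhR-deficient cells and by 0.18 ± 0.06 in wild-type cells (edgeR adjusted p = 0.0205 and 0.0212). Rplp1 had 480.4, 523 and 529.8 CPM with IL-4 in AhR-deficient cells, against 622, 589 and 602 CPM in medium, and in wild-type cells 565, 476, 521 and 535 CPM with IL-4, against 685, 542, 518 and 524 CPM in medium. Its groups were apart in AhR-deficient cells alone, and it did not pass in either genotype (-0.24 ± 0.10 and -0.11 ± 0.08, edgeR adjusted p = 0.0745 in AhR-deficient and 0.324 in wild-type cells). Rplp2 likewise did not pass, with -0.19 ± 0.08 in AhR-deficient and -0.07 ± 0.07 in wild-type cells (edgeR adjusted p = 0.111 and 0.511). With the number as a block, Rplp1 and Rplp2 passed in AhR-deficient cells (adjusted p = 0.0154 and 0.0356) and not in wild-type cells (adjusted p = 0.168 and 0.351). The fourth stalk protein gene, Rpl12, was not called either, so that 1 of the 4 was called in each genotype. Among all tested genes, 14.2% were called lower in AhR-deficient and 16.5% in wild-type cells.

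Other groups of ribosomal sites held called and uncalled members alike. Rpl5 and Rpl11, the proteins that join the 5S RNA and can bind the p53 regulator Mdm2, both fell in wild-type cells, by 0.19 ± 0.05 and 0.16 ± 0.05 (edgeR adjusted p = 0.00606 and 0.0271). In AhR-deficient cells Rpl11 fell by 0.19 ± 0.06 (edgeR adjusted p = 0.0306), and Rpl5 did not pass without the block (-0.12 ± 0.06, edgeR adjusted p = 0.136) and did with it (adjusted p = 0.0493). Of 7 proteins around the exit of the peptide tunnel, 5 were called lower in AhR-deficient cells and 4 in wild-type cells. Of 8 proteins at the sites where mRNA enters and leaves the small subunit, 3 were called lower in each genotype. The shares of all tested genes called lower were 14.2% in AhR-deficient and 16.5% in wild-type cells. Rps27a, which is made as a fusion with ubiquitin, fell by 0.16 ± 0.05 in AhR-deficient and by 0.20 ± 0.04 in wild-type cells (edgeR adjusted p = 0.0182 and 0.00157).

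Rps27l, a paralog of Rps27 known in human cells as a target of p53, stood outside the common pattern. It had 37.6, 35.97 and 39.3 CPM with IL-4 in AhR-deficient cells, against 37.2, 33.7 and 38.9 CPM in medium. Its wild-type levels were 43.5, 37.8, 37.4 and 38.8 CPM with IL-4, against 40.7, 34.0, 35.3 and 39.7 CPM in medium. The groups overlapped in both genotypes. It was the only member with a positive fold change in both, 0.04 ± 0.08 (edgeR adjusted p = 0.778) in AhR-deficient and 0.07 ± 0.07 (edgeR adjusted p = 0.471) in wild-type cells, neither of which passed. The 95% interval of its fold change ran from -0.14 to 0.22 in AhR-deficient and from -0.09 to 0.23 in wild-type cells. Rpl13a, the member with the lowest level, was the only one of opposite sign in the genotypes, at 0.02 ± 0.08 and -0.13 ± 0.07, and did not pass in either (edgeR adjusted p = 0.919 in AhR-deficient and 0.173 in wild-type cells).

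Of the members, 35 were called lower in both genotypes, 9 in AhR-deficient cells and not in wild type, 4 in wild type and not in AhR-deficient cells, and 23 in neither. Thus 79.5% of the calls in AhR-deficient cells were also calls in wild type, and 89.7% of those in wild type were also calls in AhR-deficient cells. Rps21, Rpl36, Rpl27a and Rpl19 were among the 9, and Rpl4 and Rpl5 among the 4. With the number as a block, 49 were called lower in both genotypes, 13 in AhR-deficient cells and not in wild type, 0 in wild type and not in AhR-deficient cells, and 9 in neither. Rps21, Rpl27a, Rpl19, Rpl4 and Rpl5 were then called in both. The wild-type and AhR-deficient fold changes come from separate libraries, and over the 71 members they correlated at 0.486 (Pearson) and 0.308 (Spearman). Genes of 1 library share its scaling and depth and are not replicates. The overlaps and correlations were taken over the members alone. They do not show whether agreement between the genotypes is particular to the members. Among all tested genes, 14.2% were called lower in AhR-deficient and 16.5% in wild-type cells, or 17.8% and 19.9% with the block. Fold changes followed neither level nor length closely: over the 71 members Spearman's rho was -0.11 in AhR-deficient and -0.27 in wild-type cells with mean log2 CPM, and 0.14 and -0.11 with transcript length.

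**Figure D4:**
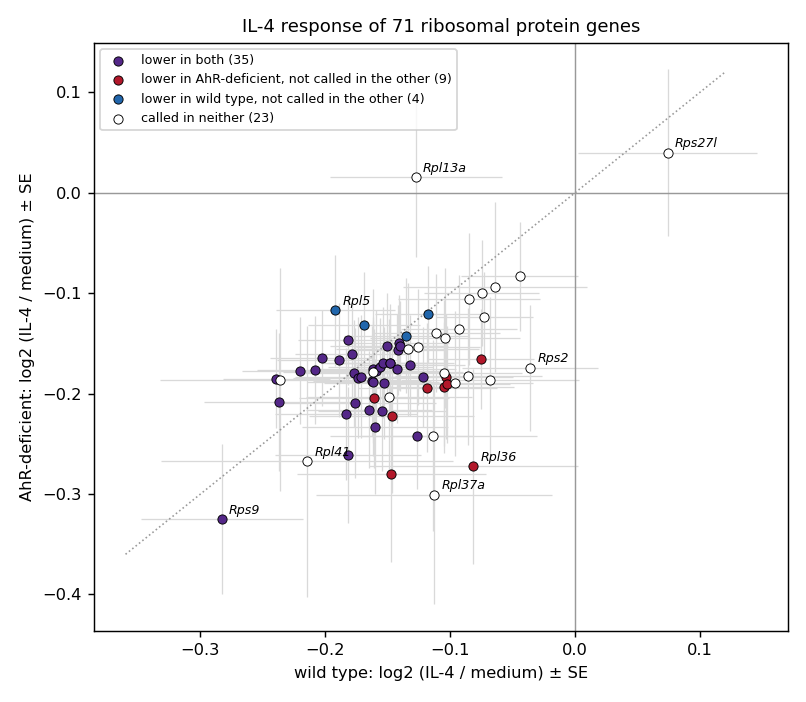
Log2 fold change with IL-4 of each of the 71 ribosomal protein genes in AhR-deficient (vertical axis) against wild-type cells (horizontal axis), with bars of 1 SE; colour gives the genotypes in which a gene was called, and the dotted line marks equal values. Most genes lie below 0 on both axes, Rps9 lies lowest on both, and Rps27l is the 1 gene above 0 on both.

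Whether the responses differed between the genotypes was tested by the interaction, the response of AhR-deficient cells minus that of wild-type cells. edgeR called 0 of the 71 members and 0 of all tested genes (0%), and at an unadjusted p under 0.05 there were 0 members and 558 genes in all. With the number as a block edgeR again called 0 genes, as did limma-voom without it, and DESeq2's Wald test called 0 members and 3 genes. The median over the members was -0.03. Without wild type number 1 in medium it was -0.07 and 5 members had an unadjusted p under 0.05, and without numbers 1 and 2 it was -0.08 with 8 such members, 0 of them called in either case. The 95% interval held 0 for all 71, with a median width to either side of 0.17 and outer bounds of -0.51 and 0.38, so differences as large as the responses themselves were not detectable for many members. The smallest p-values were those of Rpl36, Rps2 and Rps19, whose fold changes in wild-type cells were -0.08, -0.04 and -0.13. Rpl36 had an interaction of -0.19 ± 0.13, Rps2 of -0.14 ± 0.08 and Rps19 of -0.12 ± 0.07, and none passed (edgeR adjusted p = 0.9999 for each).

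Of these 3, Rps2 lies near the mRNA entry channel. It had 522, 563 and 562 CPM with IL-4 in AhR-deficient cells, against 635, 619 and 604 CPM in medium, without overlap. In wild-type cells it had 564, 535, 558 and 581 CPM with IL-4, against 633, 558, 574 and 530.1 CPM in medium, with overlap. It did not pass in AhR-deficient cells (-0.17 ± 0.06, edgeR adjusted p = 0.0504, or 0.0402 with the number as a block) or in wild-type cells (-0.04 ± 0.05, edgeR adjusted p = 0.658). Rpl36, a large-subunit gene, fell in AhR-deficient cells by 0.27 ± 0.10 (edgeR adjusted p = 0.0480), a call lost in 17 of 28 alternative fits, and stood at -0.08 ± 0.08 in wild-type cells (edgeR adjusted p = 0.502).

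Between the genotypes no member passed the test. With IL-4, edgeR called 0 of 71, against 1.62% of all tested genes, 0 members had an unadjusted p under 0.05, and the median log2 difference, AhR-deficient minus wild type, was 0.00. DESeq2 and limma-voom also called 0. The smallest p-values belonged to Rps27, Rpl30 and Rps13, and none passed. Rps27 had 435, 427 and 430.4 CPM in AhR-deficient cells with IL-4, all above the 415, 384, 409 and 416 CPM of wild-type cells with IL-4, a difference of 0.09 ± 0.05 (95% interval -0.03 to 0.20, edgeR adjusted p = 0.385). Rpl30 and Rps13 differed by 0.05 ± 0.04 and 0.05 ± 0.05 (edgeR adjusted p = 0.596 and 0.573).

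In medium, edgeR called 0 of 71 between AhR-deficient and wild-type cells, against 8.11% of all tested genes, and 0 members had an unadjusted p under 0.05. DESeq2 and limma-voom again called 0. The median log2 difference was 0.03. Without wild type number 1 in medium, 13 members had an unadjusted p under 0.05, the median was 0.08 and 1 member, Rpl37a, was called higher in AhR-deficient cells. The calls over all genes, 1197 in number, were 95 without AhR-deficient number 4 in medium and 59 with the medium libraries fitted alone. Rpl36, Rps2 and Rpl37a had the smallest p-values and did not pass. Rpl37a, a zinc-finger protein gene of the large subunit, had 310.2, 298 and 291 CPM in the AhR-deficient libraries, against 326, 237, 241 and 247 CPM in the wild-type ones. Wild type number 1 lay above all 3 AhR-deficient libraries and the other 3 wild-type libraries below them, and the difference was 0.19 ± 0.10 (edgeR adjusted p = 0.258). Rpl36 and Rps2 differed by 0.17 ± 0.09 and 0.11 ± 0.06 (edgeR adjusted p = 0.238 and 0.250).

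Other ribosomal protein genes were left out by the rule. Of the 4 X-linked genes, 3 were called lower in each genotype (Rpl10, Rpl39 and Rps4x), with medians of -0.16 in AhR-deficient and -0.18 in wild-type cells. For this and the next lists, 14.2% of all tested genes were called lower and 15.4% higher in AhR-deficient cells. In wild-type cells the shares were 16.5% and 19.4%. Rps4x had 912 ± 31.4 CPM with IL-4 in AhR-deficient cells, against 1022 ± 31.9 CPM in medium (edgeR adjusted p = 0.0400), and 888 ± 51.4 CPM with IL-4 in wild-type cells, against 1032 ± 34.2 CPM in medium (edgeR adjusted p = 0.00300). Of 8 ribosomal protein genes whose symbols the rule does not take, 4 were called lower and 0 higher in AhR-deficient cells (Fau, Rack1, Rpl22l1 and Rps3a1). In wild-type cells 3 were called lower (Rack1, Rpl22l1 and Rps3a1) and 1 higher, Rpl7l1, which in spite of its name is a factor of large-subunit assembly (0.14 ± 0.05, edgeR adjusted p = 0.0491), a call lost in 18 of 28 alternative fits. Of 8 paralogs of ribosomal protein genes, 6 were tested, Rps27l, Rpl22l1 and Rpl7l1 among them. In AhR-deficient cells 1 was called lower and 0 higher (median -0.01), and in wild-type cells 1 lower and 1 higher (median 0.10), the called ones being Rpl22l1 and Rpl7l1.

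Beyond the ribosome's own proteins, of 20 TOP genes of translation outside the rule, 8 were called lower and 0 higher in AhR-deficient cells (median -0.12), and 13 were called lower and 0 higher in wild-type cells (median -0.14). All tested genes were called lower in 14.2% and 16.5% of cases. Rack1, counted above, is also on this list, and Npm1 and Nap1l1 are also on the biogenesis and chaperone lists below. The elongation factor gene Eef1a1 had 6354 ± 155 CPM with IL-4 in AhR-deficient cells, against 7262 ± 139 CPM in medium, and 6317 ± 232 CPM with IL-4 in wild-type cells, against 7323 ± 258 CPM in medium. It fell by 0.19 ± 0.05 in AhR-deficient and by 0.21 ± 0.05 in wild-type cells (edgeR adjusted p = 0.0120 and 0.00198). Eef2, the translocation factor, fell by 0.21 ± 0.06 and 0.15 ± 0.05 in AhR-deficient and wild-type cells (edgeR adjusted p = 0.0110 and 0.0314), and Eif3h, an initiation factor subunit, by 0.25 ± 0.06 and 0.22 ± 0.05 (edgeR adjusted p = 0.00740 and 0.00553). Eif4b, Eif3l and Eif3m, also on this list, stood within 0.03 of 0 in both genotypes and did not pass.

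**Figure D5:**
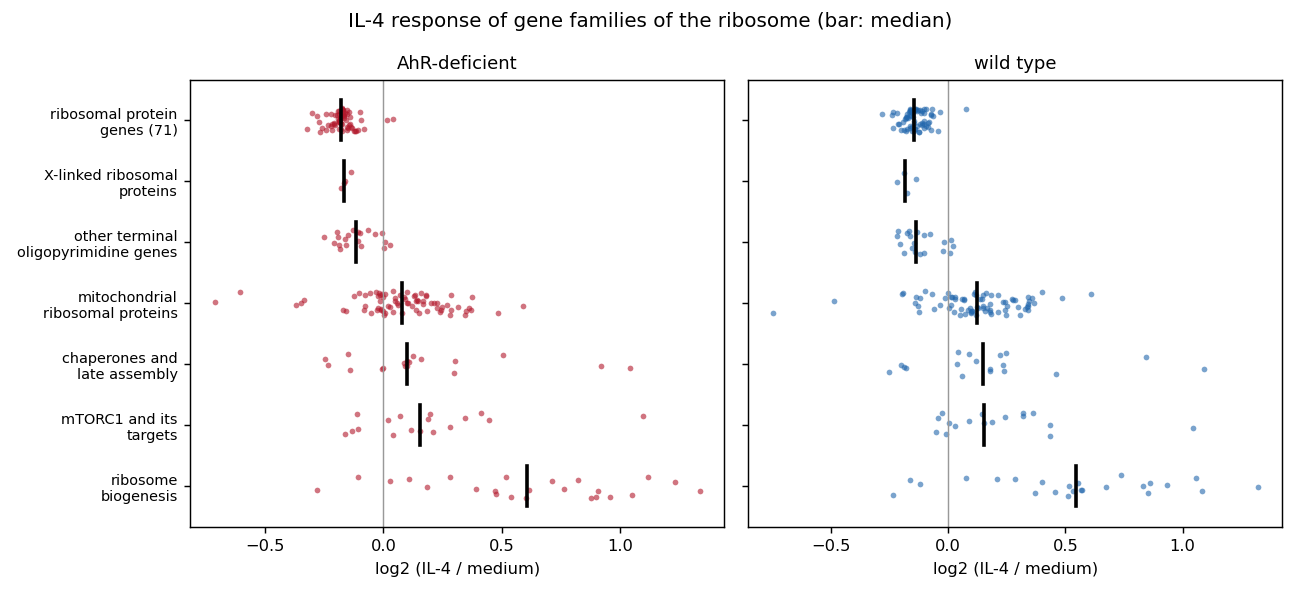
Log2 fold change with IL-4 in AhR-deficient (left) and wild-type cells (right) for genes of 7 groups; each point is a gene and each black bar the median of its group. Ribosomal protein genes and other TOP genes lie mostly below 0, and ribosome biogenesis genes lie mostly above it, with medians of 0.61 and 0.54.

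Of 24 ribosome biogenesis genes, 19 were called higher and 1 lower in AhR-deficient cells (median 0.61), and 20 higher and 2 lower in wild-type cells (median 0.54). Among all tested genes, 15.4% were called higher in AhR-deficient and 19.4% in wild-type cells. Gar1, a protein of the particles that pseudouridylate ribosomal RNA, had 20.9 ± 1.69 CPM with IL-4 in AhR-deficient cells, against 8.25 ± 0.462 CPM in medium, and 17.7 ± 1.01 CPM with IL-4 in wild-type cells, against 7.08 ± 0.425 CPM in medium. It rose by 1.34 ± 0.08 and 1.32 ± 0.07 (edgeR adjusted p = 2.66e-08 in AhR-deficient and 5.17e-09 in wild-type cells). Nop10, of the same particles, went the other way and fell by 0.28 ± 0.09 and 0.24 ± 0.08 (edgeR adjusted p = 0.0354 and 0.0345). Of 18 chaperones of ribosomal proteins and late assembly factors, 5 were called higher and 3 lower in AhR-deficient cells (27.8% and 16.7%), and 8 higher and 4 lower in wild-type cells (44.4% and 22.2%). The shares called lower lay near those of all tested genes, 14.2% in AhR-deficient and 16.5% in wild-type cells. Grwd1, whose yeast counterpart is a chaperone of Rpl3, rose by 1.05 ± 0.12 and 1.09 ± 0.11 (edgeR adjusted p = 1.40e-05 in AhR-deficient and 1.95e-06 in wild-type cells), while Rpl3 itself was not called (-0.08 ± 0.05 and -0.04 ± 0.05, edgeR adjusted p = 0.291 and 0.516). Sbds, which helps to free the large subunit for joining, fell by 0.24 ± 0.07 and 0.25 ± 0.06 (edgeR adjusted p = 0.0166 and 0.00369).

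Of 17 genes of mTORC1 and of TOP control, 8 were called higher and 0 lower in AhR-deficient cells, and 9 higher and 0 lower in wild-type cells, with a median of 0.15 in both. Larp1 had 315 ± 13.4 CPM with IL-4 in AhR-deficient cells, against 259 ± 13.1 CPM in medium, and 259.5 ± 23.8 CPM with IL-4 in wild-type cells, against 208 ± 25.8 CPM in medium. It rose by 0.28 ± 0.10 and 0.32 ± 0.08 (edgeR adjusted p = 0.0406 in AhR-deficient and 0.00780 in wild-type cells). Eef2k, the kinase that inactivates the protein of Eef2, rose by 1.10 ± 0.17 and 1.04 ± 0.14 (edgeR adjusted p = 1.85e-04 and 4.39e-05). Of 77 tested genes of mitochondrial ribosomal proteins, 16 were called higher and 5 lower in AhR-deficient cells (20.8% and 6.49%, median 0.08), against 15.4% and 14.2% of all tested genes. In wild-type cells 24 were called higher and 4 lower (31.2% and 5.19%, median 0.12), against 19.4% and 16.5% of all tested genes.

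Between the genotypes in medium, 3 biogenesis genes (Nolc1, Nop56 and Nop58) and 3 late factors (Aamp, Eif6 and Grwd1) were called higher in AhR-deficient cells, of 24 and 18 genes and against 4.16% of all tested genes. Eif6, which keeps the subunits apart, had a mean of 110.0 CPM in the AhR-deficient libraries and 93.0 CPM in the wild-type ones (0.24 ± 0.06, edgeR adjusted p = 0.0313). Of the mTORC1 and TOP list, Larp1 was called higher (0.32 ± 0.09, edgeR adjusted p = 0.0442) and Eef2k (-0.68 ± 0.16, edgeR adjusted p = 0.0240) and Eif4ebp2 (-0.22 ± 0.06, edgeR adjusted p = 0.0442) were called lower, of 17 genes and against 3.95% of all tested genes. These calls depended on the fit: of 27 alternatives, that of Eef2k was lost in 6, those of Eif6 and Nop58 in 9, that of Larp1 in 17 and that of Nolc1 in 19. Without AhR-deficient number 4 in medium, or with the medium libraries fitted alone, 0 genes of these 3 lists were called. Of all tested genes, 0.63% and 0.42% were called in these fits. With IL-4, 0 genes of these 3 lists were called between AhR-deficient and wild-type cells, against 1.62% of all tested genes. At such low shares, 0 calls are not a result particular to these lists.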

How the data were processed

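The authors deposited raw counts of reads per gene for the 14 libraries, prepared with a stranded mRNA kit and read as 100-nt pairs, per the labels. FastQC, STAR and mm10 are named by the submitters' processing notes, without versions. Not given in the sources used here are the counting program, annotation, strand setting and handling of multiply mapped reads. Reads that fit both a gene and a pseudogene copy may therefore be lost or shared. Of 55487 identifiers, 55094 matched GENCODE M21 with their version and 55394 in all.

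Counts were fitted in R 4.3.3 with edgeR 4.0.16: filterByExpr (14754 genes), TMM scaling, 1 mean per group over all 14 libraries, quasi-likelihood F-tests with 10 residual degrees of freedom and Benjamini-Hochberg adjustment over all genes tested. CPM are TMM-scaled in levels and unscaled in the rule. SE is the fold change over the square root of F, and 95% intervals use t with 10 degrees of freedom. The tests also draw degrees of freedom from the spread of other genes, so the intervals are slightly wider than the p-values imply. Pair ratios added 0.5 CPM. Over all genes the numbers pair the libraries: in all 7 pairs, deviations from group means correlated (r 0.170 to 0.706 over 10575 genes) and matched their own number best. Over the members alone r was -0.489 in AhR-deficient number 4 and between 0.271 and 0.787 in the other numbers. No number occurs in both genotypes. The steps were tested on simulated counts. Members and gene lists were chosen with earlier results of these data known. Named were the 5 called members that fell most per comparison, or the 3 with the smallest p where none was called, the stalk genes, Rps27 and Rps27l and the 5 highest per kilobase; Rpl5, Rpl11, Rpl13a, Rps27a, Rpl3, members listed by their calls, and the genes of the other lists were chosen after their values were seen. RefSeq windows matched 51 members. Alternatives used other scalings, filters and libraries, limma 3.58.1, DESeq2 1.42.0, the number as a block, and a granulocyte covariate.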

Additional observations from a re-analysis of the deposited data

Results flagged for a closer look

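Of 38 groups of 4 libraries examined for a value standing apart (the wild-type groups, for 18 named genes and for the share of all members), 5 had one by Dixon's test at 95%. Chance finds about 1 in 20. All 5 were high values of wild type number 1 in medium, so they share 1 library and are not independent. Rpl37a stood at 326 CPM there and at 237 to 247 CPM in the other 3 libraries of the group. Rplp1 stood at 685 CPM against 518 to 542 CPM, Rps21 at 202 CPM against 164 to 169 CPM, and Rps29 at 607 CPM against 514 to 520.0 CPM. The members together took 4.16% of the counts of that library against 3.51% to 3.55%. The library also had the highest summed neutrophil markers (1250 CPM) and eosinophil and basophil markers (389 CPM) of the series, and their part in these values was not tested.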

How the results depend on the processing

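Scaling by total counts without TMM left 3 members called lower in AhR-deficient cells (median -0.13) and 17 in wild-type cells. The shares of all tested genes called lower were 11.7% and 14.7%. It put the median genotype difference of the members in medium at -0.035 in place of 0.03. The median of all tested genes moved as well, to -0.055 in place of 0.01. Relative to all tested genes the members stood at 0.02 under both scalings. Testing every gene with a count, 27587 in place of 14754, left 6 in AhR-deficient cells, where 6.27% of all genes were called lower. Fitting the wild-type groups alone left 20 in wild type, and leaving out numbers 1 and 2 left 6, where 16.0% and 12.3% of all tested genes were called lower. Over fits that leave out 1 library each, 13 to 58 members were called lower in AhR-deficient and 19 to 41 in wild-type cells. The shares of all tested genes called lower were 11.1% to 15.2% and 14.4% to 17.2%. The 58 came without wild type number 1 in medium, which takes part in the shared estimate of the spread. In these fits the medians were -0.18 to -0.16 in AhR-deficient cells, -0.17 to -0.10 in wild-type cells, -0.03 to 0.03 for the genotype difference with IL-4, 0.01 to 0.08 for that in medium and -0.07 to 0.01 for the interaction. Members called higher in AhR-deficient cells in medium were 0 to 1, the 1 being Rpl37a without wild type number 1 in medium. In every other case of the comparisons listed, 0 members were called higher, and the interaction and the genotype difference with IL-4 called 0. With autosomal counts as the total, the share of the members was 3.41% in AhR-deficient cells with IL-4 and 3.75% in medium.

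The pairing by number changed no direction. With the replicate block, 62 members were called lower in AhR-deficient cells (44 without) and 49 in wild-type cells (39 without), and 0 calls were lost. The shares of all tested genes called lower were 17.8% (14.2% without) and 19.9% (16.5% without). As a random block in limma-voom the counts were 63 and 48. DESeq2 called 51 and 42, and limma-voom 47 and 40. All tested genes called lower were 18.6% and 20.7% with the random block, 14.5% and 17.9% by DESeq2, and 14.1% and 16.3% by limma-voom. In AhR-deficient cells, 69 or 70 of 71 members were negative under every alternative run. In wild-type cells 70 were, except 66 without number 1 in medium and 62 without numbers 1 and 2. The cause of these shifts was not tested. The number of libraries limits precision: the median SE of a member was 0.06 in AhR-deficient and 0.05 in wild-type cells, on the log2 scale.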
